A study of Mus musculus with 12 samples.

Results

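The class I and class II histone deacetylases are the zinc-dependent enzymes Hdac1 to Hdac10, and all 10 genes were followed over 12 mouse pancreatic arrays on which 22180 genes were measured. They were chosen by symbol, with the probe set of the highest mean where a gene had several. Each of the 10 had exactly 1 probe set with a single gene symbol. The arrays held 4 kinds of cells, 3 arrays each, all labelled C57Bl6/J wildtype. The tumor group was low-passage tumor cells grown in standard medium, for which the labels give no driver allele. The acinar-to-ductal metaplasia (ADM) group had been kept for 7 days in 3D collagen and treated with Tgf-alpha, which activates the EGF receptor, at 50 ng/ml. The embryonic and adult groups were acinar cells whose RNA was taken right after collagen-digestion, and no age or embryonic stage is given for them. Replicates are numbered 1 to 3 in each group. The labels do not tie them to separate mice or cultures. The spread behind every p-value is therefore that between these arrays, which may be technical.

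Histone deacetylases remove acetyl groups from lysines, on histone tails and on other proteins. In class I, Hdac1 and Hdac2 are the paired catalytic subunits of the SIN3, NuRD and CoREST corepressor complexes, Hdac3 is the enzyme of the NCoR and SMRT complex, and Hdac8 works outside these and deacetylates the cohesin subunit Smc3. The class IIa enzymes Hdac4, Hdac5, Hdac7 and Hdac9 have weak catalytic activity, bind MEF2 transcription factors, and leave the nucleus bound to 14-3-3 proteins once kinases of the CaMK, PKD and SIK families have phosphorylated them. In class IIb, Hdac6 is a cytoplasmic deacetylase of tubulin and cortactin and Hdac10 is a polyamine deacetylase. Acinar cells, which secrete digestive enzymes, lose their identity and take on a duct-like state in ADM.

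Hdac1 had the widest range of group means of the 10 genes, and adult acinar cells stood apart. The log2 signal of Hdac1 was 9.27, 9.53 and 9.45 in tumor cells, 9.53, 9.48 and 9.74 in ADM cultures and 9.38, 9.28 and 9.23 in embryonic acinar cells, against 5.50, 7.11 and 6.52 in adult acinar cells. No adult array reached any array of the other groups, and the adult arrays were also the most spread. Beside this, Hdac2, Hdac3, Hdac6 and Hdac7 had their highest mean in tumor cells and their lowest in adult cells, and Hdac5 and Hdac10 were highest in adult cells. On the deposited values Hdac4, Hdac8 and Hdac9 showed no difference that passed a test. A difference was called where limma's Benjamini-Hochberg adjusted p over all 22180 genes was under 0.05 and the absolute log2 difference was at least 1.

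Promoter sequences are shown for Hdac2, a member that rose in tumor cells over adult cells, and for Hdac5, a member that fell in the same comparison. They come from RefSeq (GRCm38.p6) and run from 250 bases before to 50 bases after the annotated start, 5′ to 3′ on the strand of the gene. Of the 10 members, 7 matched an entry, Hdac2, Hdac4, Hdac5, Hdac6, Hdac7, Hdac8 and Hdac9. Capitals mark matches to the motifs searched on both strands, which were the GC box GGGCGG, the CCAAT box CCAAT, the E2F sites TTTCGCGC and TTTGGCGC, the E-box CACGTG and the TATA box TATAAA.
Hdac2 (chr10:36974294-36974593, plus strand): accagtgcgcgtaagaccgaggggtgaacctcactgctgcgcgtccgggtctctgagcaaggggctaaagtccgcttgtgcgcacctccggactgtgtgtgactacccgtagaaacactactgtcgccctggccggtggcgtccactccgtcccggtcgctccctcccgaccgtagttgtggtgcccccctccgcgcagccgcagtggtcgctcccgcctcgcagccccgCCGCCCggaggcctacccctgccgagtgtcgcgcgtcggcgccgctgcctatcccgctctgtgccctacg
Hdac5 (chr11:102230123-102230422, minus strand): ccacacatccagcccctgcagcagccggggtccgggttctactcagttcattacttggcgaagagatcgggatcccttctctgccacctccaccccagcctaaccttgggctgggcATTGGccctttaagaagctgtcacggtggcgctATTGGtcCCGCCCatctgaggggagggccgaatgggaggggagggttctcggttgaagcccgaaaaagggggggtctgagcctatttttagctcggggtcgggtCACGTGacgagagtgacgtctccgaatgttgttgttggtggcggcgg
The window of Hdac2 held 36 CpG dinucleotides, more than 93.8% of 32851 such windows, with 69.7% G and C and a single GC box on the opposite strand. The window of Hdac5 held 18 CpG dinucleotides, more than 70.3% of the windows, with 60.7% G and C, and carried 1 GC box, 2 CCAAT boxes and 1 E-box. Over all windows, 35.7% held the GC box, 37.4% the CCAAT box, 0.813% an E2F site, 7.15% the E-box and 13.6% the TATA box, and the median was 7 CpG. These matches describe the letters in a window and are not binding sites.

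Over the 4 groups, 7 of the 10 members passed limma's moderated F test at an adjusted p under 0.05, where 46.7% of all genes did. The adjusted p was 2.17e-06 for Hdac1, 0.000134 for Hdac2, 0.000156 for Hdac3, 0.000965 for Hdac7, 0.00255 for Hdac10, 0.00398 for Hdac6 and 0.0172 for Hdac5. It was 0.204 for Hdac9, 0.307 for Hdac4 and 0.528 for Hdac8. The range of the group means was widest for Hdac1, at 3.21 on the log2 scale, followed by 1.81 for Hdac5, 1.72 for Hdac7, 1.33 for Hdac3 and 1.06 for Hdac2. It was 0.99 for Hdac10, 0.85 for Hdac6, 0.63 for Hdac9, 0.48 for Hdac4 and 0.29 for Hdac8. The ranges of Hdac8 and Hdac9 include group means under the background level described next. These are differences within a probe set, and no probe set's level was set against another's.

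**Figure D1:**
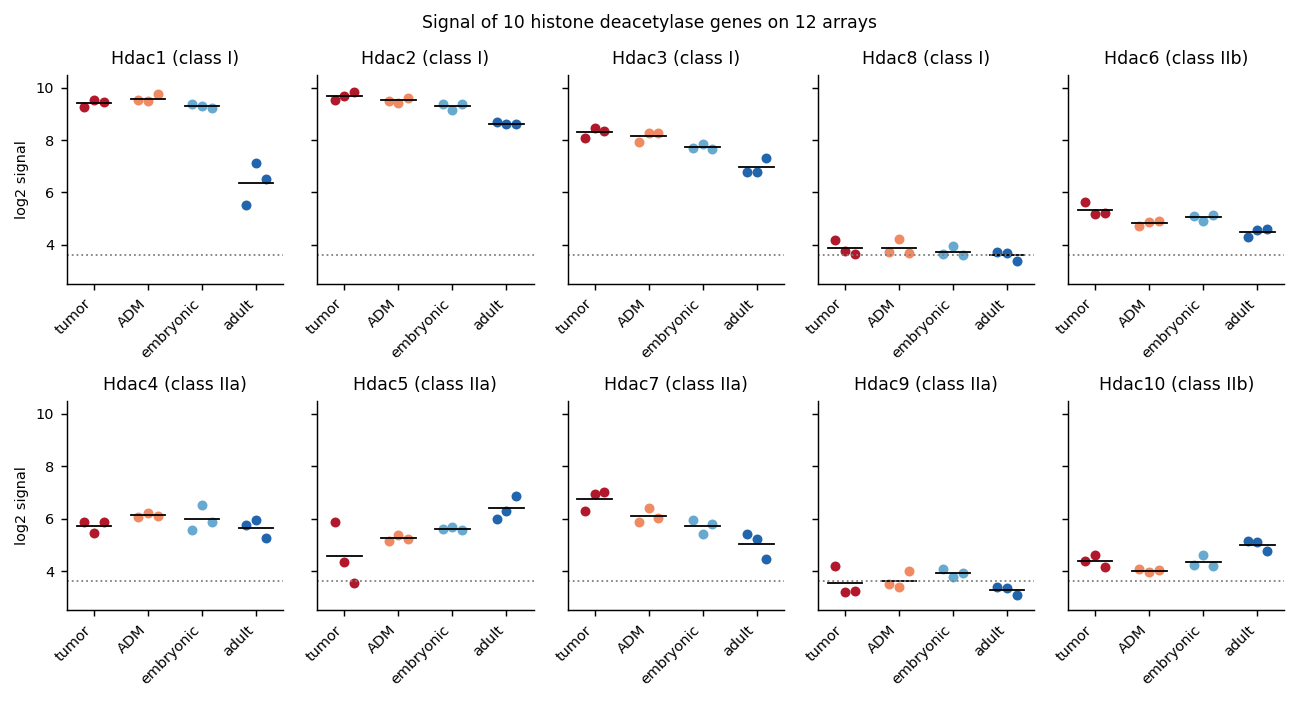
Log2 signal (vertical axis) of the 10 genes on each of the 12 arrays, in tumor, ADM, embryonic and adult cells; points are arrays, horizontal lines are means of 3 arrays, and the dotted line is the background level of 3.62. The adult points of Hdac1, at 5.50 to 7.11, lie below all others, and the tumor points of Hdac5 spread over 3.56 to 5.86.

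Where a level lay near the floor of the array, only a bound can be read. The background level was 3.62, below which lay 95% of the group means of 1394 receptor genes of the nose (olfactory and vomeronasal). Hdac8 was above it on 10 of 12 arrays, Hdac9 on 5 and Hdac5 on 11, and the other 7 members on all 12. RNA was taken from whole preparations, so fewer cells of a type and less RNA per cell cannot be told apart in any value given here.

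Of the class I genes, Hdac1 averaged 9.42 ± 0.13 in tumor, 9.58 ± 0.14 in ADM and 9.30 ± 0.08 in embryonic cells, against 6.38 ± 0.81 in adult cells (SD, n = 3 each). In limma's fit it was higher than in adult cells by 3.04 ± 0.29 in tumor (8.22-fold, adjusted p = 2.36e-06), by 3.21 ± 0.29 in ADM (9.23-fold, adjusted p = 2.40e-06) and by 2.92 ± 0.29 in embryonic cells (7.57-fold, adjusted p = 9.64e-06), with standard errors (SE) after the sign. By absolute log2 difference it ranked 642 of 22180 genes in tumor, 321 in ADM and 286 in embryonic cells over adult cells. The 3 comparisons share the adult arrays, so they are not independent of each other. Among the other groups the difference in Hdac1 was -0.17 for tumor over ADM (95% interval -0.80 to 0.47), 0.29 for ADM over embryonic (-0.35 to 0.92) and 0.12 for tumor over embryonic cells (-0.51 to 0.75). None of these passed, and each interval takes in both a rise and a fall. The SE of 0.29 is pooled over the 4 groups, and the adult arrays, outside these comparisons, spread most. These intervals therefore do not measure the spread of the compared groups alone. Every ADM array, at 9.48 to 9.74, lay above every embryonic array, at 9.23 to 9.38, while tumor arrays overlapped both. RefSeq also lists a pseudogene of Hdac1, and cross-hybridisation with it was not tested.

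Hdac2, the partner of Hdac1 in its complexes, had a log2 signal of 9.54, 9.67 and 9.84 in tumor, 9.50, 9.42 and 9.62 in ADM and 9.39, 9.16 and 9.39 in embryonic cells, against 8.67, 8.60 and 8.60 in adult cells. Every adult array lay below every other array, as for Hdac1. Hdac2 rose by 1.06 ± 0.14 in tumor over adult cells (2.08-fold, adjusted p = 3.76e-05). Its differences of 0.89 ± 0.14 in ADM (adjusted p = 0.000227) and 0.69 ± 0.14 in embryonic over adult cells (adjusted p = 0.00233) passed on p but lay under the minimum of 1. Without tumor replicate 3 the tumor difference was 0.98, just under it.

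The difference between Hdac1 and Hdac2 within an array does not depend on how arrays are scaled by a constant. Hdac1 minus Hdac2 was -0.27, -0.14 and -0.39 on tumor arrays, 0.03, 0.06 and 0.12 on ADM arrays and -0.01, 0.12 and -0.16 on embryonic arrays, against -3.17, -1.49 and -2.08 on adult arrays. All adult arrays were below all others. The shift against adult cells was 1.98 in tumor, 2.32 in ADM and 2.23 in embryonic cells, each with an exact two-sided permutation p of 0.1, the smallest that 3 against 3 arrays can give. Hdac1 minus Hdac3 showed the same order, at 1.20, 1.09 and 1.09 on tumor arrays, 1.59, 1.22 and 1.46 on ADM arrays and 1.67, 1.44 and 1.59 on embryonic arrays, against -1.29, 0.35 and -0.81 on adult arrays. Here the shift against adult cells was 1.71 in tumor, 2.01 in ADM and 2.15 in embryonic cells, again at an exact permutation p of 0.1. Probe sets of different genes can respond differently to the same change, so only the shift between groups is read.

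Hdac3 had a log2 signal of 8.07, 8.44 and 8.36 in tumor, 7.94, 8.26 and 8.28 in ADM and 7.71, 7.84 and 7.64 in embryonic cells, against 6.79, 6.76 and 7.33 in adult cells. The adult arrays were again lowest with no overlap. Hdac3 rose by 1.33 ± 0.18 in tumor (2.51-fold, adjusted p = 5.54e-05) and by 1.20 ± 0.18 in ADM over adult cells (adjusted p = 0.000181). The difference of 0.77 ± 0.18 in embryonic over adult cells (adjusted p = 0.00664) and that of 0.56 ± 0.18 in tumor over embryonic cells (adjusted p = 0.0363) lay under the minimum of 1. Hdac8 stayed close to the background level, with 4.19, 3.77 and 3.64 in tumor, 3.73, 4.22 and 3.69 in ADM, 3.65, 3.96 and 3.61 in embryonic and 3.72, 3.68 and 3.38 in adult cells. Its groups overlapped in every comparison, and at this signal over background a difference would have been hard to measure.

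Among the class IIa genes, Hdac5 and Hdac7 moved in opposite directions. Hdac5, a repressor of MEF2 targets known from heart muscle, had a log2 signal of 5.86, 4.33 and 3.56 in tumor, 5.16, 5.38 and 5.23 in ADM and 5.62, 5.67 and 5.58 in embryonic cells, against 6.0, 6.31 and 6.86 in adult cells. The adult arrays were the highest without overlap, and the 3 tumor arrays were far apart, with replicate 3 under the background level. Hdac5 fell by 1.81 ± 0.42 in tumor over adult cells (adjusted p = 0.00373), a 3.50-fold lower signal. Without tumor replicate 1 it was lower by -2.44, or 5.45-fold (adjusted p = 7.24e-06). In ADM over adult cells the difference was -1.13 ± 0.42 with an adjusted p of 0.0499, a call that sits on the threshold, and it was -0.77 ± 0.42 in embryonic over adult cells (adjusted p = 0.185). The SE of 0.42 is pooled over the 4 groups, so it includes the spread of the tumor arrays, which are outside these comparisons. The SD was 1.17 in tumor, 0.44 in adult, 0.11 in ADM and 0.05 in embryonic cells. Leaving out 1 array of the 12 ended the ADM call in 9 cases, namely each ADM array, each embryonic array, tumor replicate 2 and adult replicates 2 and 3, with adjusted p-values of 0.0604 to 0.161.

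Tumor replicate 1 decided how far tumor cells differed from the other groups in Hdac5. Without it, tumor cells averaged 3.95 on the log2 scale, and Hdac5 was lower by a called difference of -1.31 in tumor over ADM (adjusted p = 0.00271) and -1.68 in tumor over embryonic cells (adjusted p = 0.000281). With all 12 arrays these differences were -0.67 ± 0.42 (adjusted p = 0.375) and -1.04 ± 0.42 (adjusted p = 0.0888), and neither passed. This replicate also had the lowest weight of the 12 when limma estimated array weights, 0.438. The 3 adult arrays had the next lowest weights, 0.527 to 0.642, and all others had 0.969 or more. Every comparison over adult cells rests on those adult arrays. Tumor replicate 1 resembled ADM replicate 2 at a correlation of 0.938, the highest between groups. It had the highest Hdac9 and Hdac6 and the lowest Hdac7 and Hdac1 of the 3 tumor arrays.

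Hdac7, known for its part in blood vessel integrity, had a log2 signal of 6.29, 6.95 and 7.02 in tumor, 5.86, 6.42 and 6.02 in ADM and 5.95, 5.42 and 5.78 in embryonic cells, against 5.43, 5.21 and 4.46 in adult cells. Tumor arrays lay above all embryonic and adult arrays, ADM arrays above all adult arrays, and the lowest embryonic array, at 5.42, lay just under the highest adult array, at 5.43. Hdac7 rose by 1.72 ± 0.27 in tumor (3.29-fold, adjusted p = 0.000184) and by 1.07 ± 0.27 in ADM over adult cells (adjusted p = 0.00762). It was also the only member called between tumor and embryonic cells, with a rise of 1.04 ± 0.27 (adjusted p = 0.0113). Its differences of 0.68 ± 0.27 in embryonic over adult cells (adjusted p = 0.0742) and 0.65 ± 0.27 in tumor over ADM (adjusted p = 0.139) did not pass. Single arrays took the smaller of these rises under the minimum of 1: the ADM difference was 0.91 without ADM replicate 2 and 0.78 without adult replicate 3, and that of tumor over embryonic cells was 0.94 without tumor replicate 2, 0.90 without tumor replicate 3 and 0.89 without embryonic replicate 2.

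Hdac4, a class IIa enzyme known from bone and muscle, had 5.88, 5.44 and 5.87 in tumor, 6.08, 6.21 and 6.11 in ADM, 5.56, 6.53 and 5.86 in embryonic and 5.77, 5.95 and 5.25 in adult cells. Its tumor over adult difference was 0.07 ± 0.24 (adjusted p = 0.841), and no other difference of Hdac4 passed. Hdac9, also known from muscle, had 4.18, 3.20 and 3.23 in tumor, 3.52, 3.38 and 4.0 in ADM and 4.06, 3.77 and 3.91 in embryonic cells, against 3.38, 3.37 and 3.10 in adult cells. The embryonic arrays were the only group of Hdac9 with all 3 arrays above background, while the 3 adult arrays were all under it. Read against the background level, Hdac9 was at least 1.22-fold higher in embryonic over adult cells, and the fitted difference did not pass (adjusted p = 0.0726).

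On the deposited values the class IIb genes differed by less than the minimum of 1, and in opposite directions. Hdac6 had a log2 signal of 5.62, 5.16 and 5.23 in tumor, 4.73, 4.88 and 4.90 in ADM and 5.11, 4.90 and 5.15 in embryonic cells, against 4.30, 4.57 and 4.60 in adult cells. Adult cells were lowest and tumor cells highest, with no overlap between those groups. The difference was 0.85 ± 0.16 in tumor (adjusted p = 0.000855), 0.35 ± 0.16 in ADM (adjusted p = 0.109) and 0.56 ± 0.16 in embryonic over adult cells (adjusted p = 0.0186), all under the minimum of 1. Between tumor and ADM it was 0.50 ± 0.16, with an adjusted p of 0.0527. Hdac10 had 4.38, 4.62 and 4.16 in tumor, 4.06, 3.96 and 4.03 in ADM and 4.23, 4.63 and 4.21 in embryonic cells, against 5.14, 5.12 and 4.75 in adult cells. Every adult array of Hdac10 was above every other array, but its differences of -0.62 ± 0.17 in tumor (adjusted p = 0.0130), -0.99 ± 0.17 in ADM (adjusted p = 0.000607) and -0.65 ± 0.17 in embryonic over adult cells (adjusted p = 0.0139) did not reach 1.

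**Figure D2:**
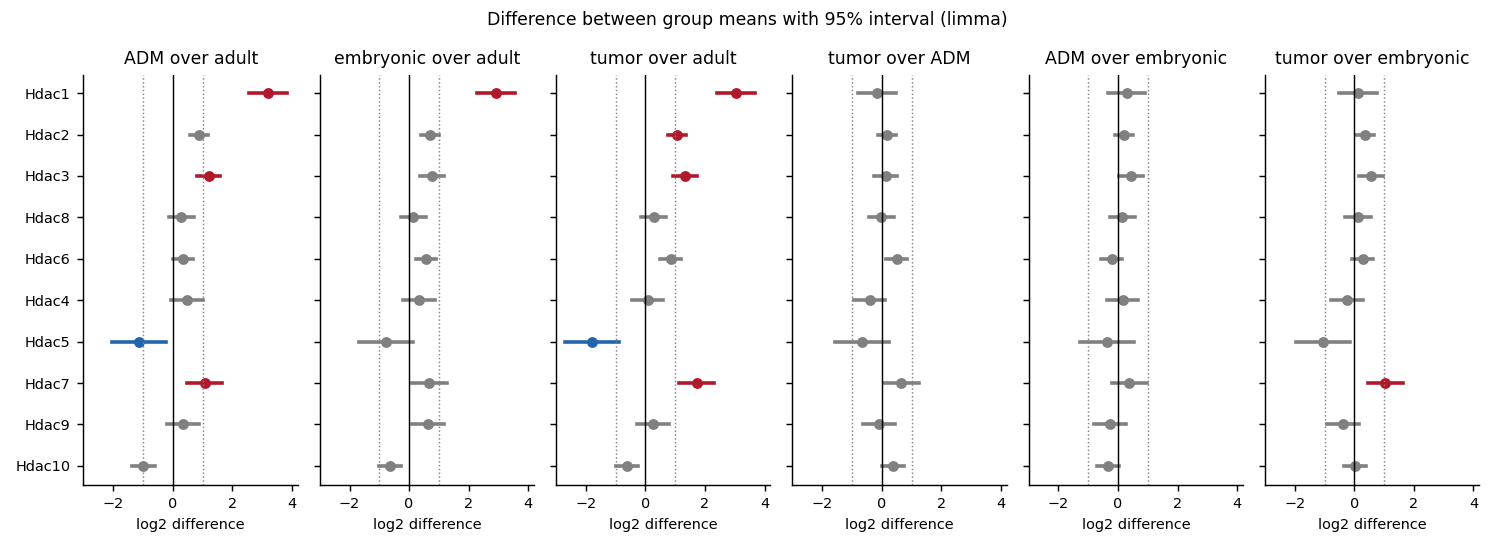
Difference of group means of the 10 genes (log2, horizontal axis) in the 6 comparisons; points are limma estimates from 3 arrays per group, bars are 95% intervals, dotted lines stand at -1 and 1, red marks called higher, blue called lower and grey not called. Hdac1 stands at 3.04 to 3.21 in tumor and ADM over adult cells, and the panels of tumor over ADM and ADM over embryonic cells hold no called gene.

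Counted by comparison, 4 members rose in tumor over adult cells, Hdac1, Hdac2, Hdac3 and Hdac7, where 14.0% of all genes were called higher, and 1 fell, Hdac5, where 5.96% were called lower. In ADM over adult cells 3 rose, Hdac1, Hdac3 and Hdac7, against 12.5% of all genes, and Hdac5 fell, against 4.22%. In embryonic over adult cells only Hdac1 rose, against 10% of all genes, and 0 members fell, against 2.61%. After quantile normalization and after housekeeping centring 2 members, Hdac5 (-1.22 and -1.13) and Hdac10 (-1.01 after each), were called lower in that comparison. The 2.61% holds for the deposited values only. Of all calls in that comparison 79.3% were higher as deposited, 64.0% after quantile normalization and 42.0% after housekeeping centring. The share of all genes called lower after rescaling is not given here. The median difference of the 10 members was 0.56 in tumor, 0.41 in ADM and 0.60 in embryonic over adult cells, and that of all genes was -0.09 in tumor, -0.11 in ADM and -0.09 in embryonic over adult cells. Brighter genes were called more often: of 5526 genes with a mean log2 signal of at least 6, which included Hdac1, Hdac2 and Hdac3, 31.9% were called higher in tumor, 28.4% in ADM and 18.0% in embryonic over adult cells. Their median difference was 0.50 in tumor, 0.42 in ADM and 0.22 in embryonic over adult cells.

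Among the other 3 comparisons, 0 members were called between tumor and ADM, where 3.28% of all genes were called higher and 5.07% lower, and 2, Hdac6 and Hdac7, had an unadjusted limma p under 0.05. Between ADM and embryonic cells 0 members were called, where 4.55% of all genes were called higher and 4.91% lower, and 1, Hdac3, had an unadjusted p under 0.05. Its difference was 0.43 ± 0.18. Between tumor and embryonic cells 1 member, Hdac7, was called higher and 0 lower, where 6.53% and 7.80% of all genes were, and 4 had an unadjusted p under 0.05.

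How the arrays were scaled decided part of these calls. On the deposited values, 70.2% of the calls in tumor, 74.7% in ADM and 79.3% in embryonic over adult cells were higher. After quantile normalization these shares were 57.4% in tumor, 59.5% in ADM and 64.0% in embryonic cells, and after cyclic loess 53.0% in tumor, 59.4% in ADM and 69.1% in embryonic cells. After centring each array on 11 housekeeping genes they were 6.82% in tumor, 10.3% in ADM and 42.0% in embryonic cells. Of these 11 genes 5 rose in tumor, 4 in ADM and 0 in embryonic over adult cells on the deposited values, with an array median of 9.38 to 9.76 in tumor, 9.21 to 9.34 in ADM and 8.66 to 9.06 in embryonic cells, against 8.08 to 8.75 in adult cells. Centring on them moved the median of all genes to -1.14 in tumor, -0.91 in ADM and -0.45 in embryonic over adult cells. Relative to the median of all genes, Hdac1 was higher by 3.13 in tumor, 3.32 in ADM and 3.01 in embryonic over adult cells. This centring subtracts 1 value per array, so by construction it cannot change such a relative value of any gene.

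Hdac1 was called higher in tumor, ADM and embryonic over adult cells under every scaling, with differences of 1.99 to 3.04 in tumor, 2.41 to 3.21 in ADM and 2.56 to 2.92 in embryonic cells. Hdac5 was called lower in tumor over adult cells under all of them too, at -2.86 to -1.81. The rise of Hdac3 lay under 1 after each rescaling, at 0.90 by quantile normalization, 0.92 by loess and 0.28 by housekeeping centring in tumor, and at 0.82, 0.87 and 0.40 in the same order in ADM over adult cells. The rise of Hdac2 in tumor over adult cells did so as well, at 0.92, 0.82 and 0.01. Hdac7 kept its call in tumor over adult cells after quantile normalization and loess, at 1.28 and 1.21, but not after housekeeping centring, at 0.67. Its other calls were lost under all 3: in ADM over adult cells Hdac7 differed by 0.67 after quantile normalization, 0.64 after loess and 0.27 after housekeeping centring, and in tumor over embryonic cells by 0.96, 0.83 and 0.35. Hdac10 was called lower in ADM over adult cells after each of the 3, at -1.24, -1.11 and -1.78.

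**Figure D3:**
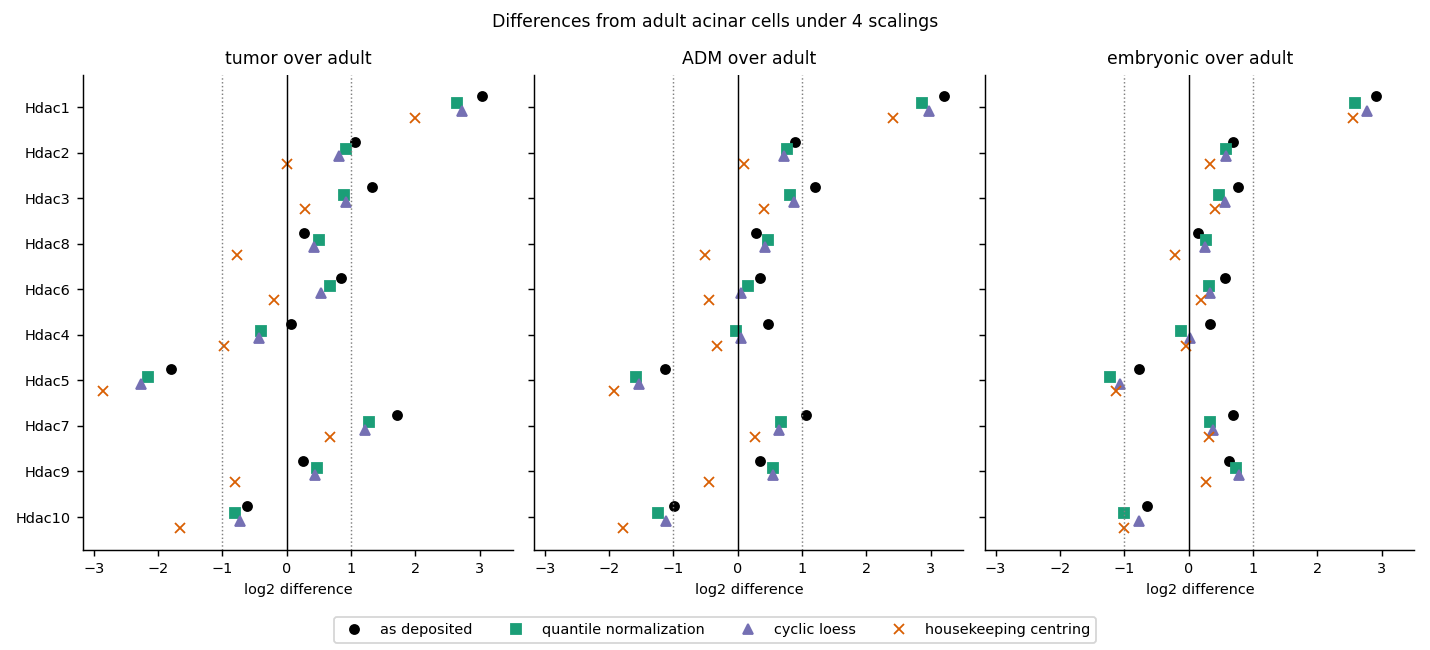
Difference from adult acinar cells (log2, horizontal axis) of the 10 genes in tumor, ADM and embryonic cells, 3 arrays per group, under the deposited scale and 3 others; markers are limma estimates and dotted lines stand at -1 and 1. Hdac1 stays above 1 under all 4, at 1.99 to 3.21, while Hdac3 in tumor cells lies at 1.33 as deposited and at 0.28 after housekeeping centring.

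The genes whose signal ran most like a member's over the 12 arrays were looked up among genes with a mean of at least 6. Hdac1 ran closest to Fem1c, a substrate receptor of a ubiquitin ligase (r = 0.990), Ankfy1, an endosomal Rab5 effector (0.983), and Med31, a Mediator subunit (0.976). Hdac5 ran closest to Clybl (0.958), Gabarap, an autophagy protein (0.937), and Golph3l (0.937), which were likewise highest in adult cells. Hdac7 ran closest to the RNA helicase Ddx46 (0.975), Prdm4 (0.973) and the spliceosome protein Snrpd3 (0.960), and Hdac3 to Ash2l, a subunit of histone H3 lysine 4 methyltransferases (0.982), Wdr1, a cofactor of actin disassembly (0.975), and the actin gene Actg1 (0.973). These correlations are descriptions over 12 arrays that fall into 4 groups, and arrays of a group share its differences from the others.

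The deacetylases outside classes I and II, Hdac11 and 7 sirtuins, were mixed. Sirt2, a tubulin deacetylase, fell by 1.58 ± 0.24 in tumor (adjusted p = 0.000120), by 1.22 ± 0.24 in ADM (adjusted p = 0.00121) and by 1.14 ± 0.24 in embryonic over adult cells (adjusted p = 0.00280). Sirt6, a chromatin-bound sirtuin, rose by 1.05 ± 0.22 in tumor (adjusted p = 0.00190) and by 1.31 ± 0.22 in ADM over adult cells (adjusted p = 0.000435). Hdac11, the class IV enzyme, fell by 1.01 ± 0.24 in tumor over adult cells (adjusted p = 0.00493). No other call was made on these 8 genes in the 6 comparisons. After housekeeping centring 0 of the 8 were higher in any group over adult cells, and after cyclic loess 0 were higher in tumor cells, so the call on Sirt6 there was lost.

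The subunits of the complexes in which the class I enzymes work were pooled from 5 lists, SIN3, NuRD, CoREST, NCoR and SMRT, and MiDAC with the MIER proteins, of which 43 of 48 genes were measured. On the deposited values 15 rose in tumor, 15 in ADM and 12 in embryonic over adult cells, and 1, Sap30l, fell in embryonic cells, with medians of 0.78 in tumor, 0.63 in ADM and 0.48 in embryonic cells. The 15 genes were 34.9% of the 43 in tumor and in ADM, and the 12 were 27.9% in embryonic cells. The share of all genes called higher was 14.0% in tumor, 12.5% in ADM and 10% in embryonic cells, and among the brighter genes with a mean of at least 6 it was 31.9% in tumor, 28.4% in ADM and 18.0% in embryonic cells, so in tumor and ADM the count lay near that of bright genes. After housekeeping centring 1 rose and 3 fell in tumor, 2 rose and 3 fell in ADM and 2 rose and 1 fell in embryonic cells, and the medians turned to -0.27 in tumor and -0.16 in ADM. After quantile normalization 9 rose in tumor, 5 in ADM and 5 in embryonic cells. Between tumor and ADM 0 of the 43 were called, and between ADM and embryonic cells 1, Tbl1xr1.

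By complex and over adult cells on the deposited scale, 6 of 14 SIN3 subunits rose in tumor, 6 in ADM and 5 in embryonic cells. Sin3a, the scaffold, rose by 1.56 in tumor, 1.38 in ADM and 1.12 in embryonic cells, and Brms1l by 1.90 in tumor, 1.52 in ADM and 1.41 in embryonic cells. Of 10 NuRD subunits 3 rose in tumor, 4 in ADM and 2 in embryonic over adult cells, among them the remodeller Chd3 by 1.74 in tumor, 1.64 in ADM and 1.33 in embryonic cells and Mta2 by 1.59 in tumor, 1.62 in ADM and 1.06 in embryonic cells. Of 9 CoREST genes 3 rose in tumor, 2 in ADM and 1 in embryonic cells, with the histone demethylase Kdm1a at 1.47 in tumor, 1.95 in ADM and 1.33 in embryonic cells. Of 4 NCoR and SMRT genes 1 rose in each, Tbl1xr1, the partner of Hdac3, by 2.05 in tumor, 2.65 in ADM and 1.19 in embryonic cells. Of 6 MiDAC and MIER genes 2 rose in tumor, 2 in ADM and 3 in embryonic cells, including Dnttip1 by 1.5 in tumor, 1.36 in ADM and 1.08 in embryonic cells and Mier1 by 1.24 in tumor, 1.21 in ADM and 1.12 in embryonic cells.

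The class IIa enzymes work through MEF2 factors and 14-3-3 proteins, and 10 such genes were measured. Of these, 3 rose and 1 fell in tumor, 4 rose and 1 fell in ADM, and 4 rose and 1 fell in embryonic over adult cells. The rises were 30% of the 10 in tumor and 40% in ADM and in embryonic cells, against 14.0%, 12.5% and 10% of all genes. Among the brighter genes with a mean of at least 6 it was 31.9%, 28.4% and 18.0%, so the tumor share was near theirs. The medians of 0.77 in tumor, 0.61 in ADM and 0.50 in embryonic cells became -0.28, -0.19 and 0.14 after housekeeping centring. They were 0.65, 0.66 and 0.47 after quantile normalization and 0.56, 0.58 and 0.48 after loess. The 14-3-3 gene Ywhah rose by 1.93 in tumor, 1.86 in ADM and 1.29 in embryonic cells and Ywhab by 1.41 in tumor, 1.27 in ADM and 1.13 in embryonic cells. Mef2d fell by 1.02 in tumor and by 1.16 in embryonic over adult cells, and Mef2a rose by 1.63 in ADM. At most the 4 largest calls per comparison were listed. The gene that fell in ADM and a further riser in embryonic cells are therefore not named here. Mef2c rose by 2.01 in embryonic over adult cells, and was lower by -2.81 in ADM over embryonic cells. Its tumor mean of 3.49 was under background, so Mef2c was at least 7.26-fold lower in tumor over embryonic cells. The embryonic arrays also held the most endothelial signal, with 8 of 8 endothelial markers higher than in adult cells and a summed linear signal of 2395 to 2526, against 491 to 609 in adult cells, and its part in the Mef2c value was not tested.

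Of 19 kinases and kinase subunits that can phosphorylate class IIa enzymes, 3 rose and 2 fell in tumor, 4 rose and 2 fell in ADM, and 0 rose and 1 fell in embryonic over adult cells. The rises were 15.8% of the 19 in tumor and 21.1% in ADM, against 14.0% and 12.5% of all genes, so in tumor the share was near that of all genes. The salt-inducible kinase Sik2 rose by 2.04 in tumor and 1.57 in ADM over adult cells, and Camk2d rose by 1.30 in tumor and 1.12 in ADM over adult cells. Camk2b fell by 1.65 in tumor, 1.03 in ADM and 1.15 in embryonic cells, and Camk1d fell by 1.37 in tumor and 1.83 in ADM over adult cells. Sik1 fell by 1.10 in tumor over ADM. Prkd1 was called lower there too, but its tumor mean of 3.46 was under background, and against that level it was at least 1.97-fold lower, which lies under the minimum for a call. After housekeeping centring 0 of the 19 were higher in any of the 3 groups over adult cells and 9 were lower in tumor, 5 in ADM and 2 in embryonic cells. Quantile normalization left 2 higher and 4 lower in tumor, 2 higher and 2 lower in ADM, and 0 higher and 2 lower in embryonic cells.

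Among the enzymes that place the mark, 6 of 14 histone acetyltransferases and coactivators rose and 1 fell in tumor, 4 rose and 2 fell in ADM, and 1 rose and 1 fell in embryonic over adult cells. The rises were 42.9% of the 14 in tumor, 28.6% in ADM and 7.14% in embryonic cells, against 14.0%, 12.5% and 10% of all genes. Among the brighter genes with a mean of at least 6 the shares were 31.9%, 28.4% and 18.0%. Hat1, which acetylates newly made histone H4, rose by 3.09 in tumor, 2.34 in ADM and 2.41 in embryonic cells. Ncoa3 rose by 1.65 in tumor and 1.42 in ADM, Kat7 by 1.65 in tumor and Ep300 by 1.49 in ADM, while Ncoa1 fell by 2.14 in tumor and 1.57 in ADM, and Kat2b by 1.19 in embryonic over adult cells. At most the 4 largest calls per comparison were listed, so whether Kat7 was also called in ADM or Ep300 in tumor is not shown. The median was 0.33 in ADM on the deposited values and -0.47 after housekeeping centring, which left 1 gene higher in each group. Quantile normalization and loess each left 3 higher in tumor, 2 in ADM and 1 in embryonic cells. In the same order 2, 4 and 2 were lower. Of 11 bromodomain readers 3 rose in tumor, 2 in ADM and 1 in embryonic over adult cells, with Atad2 at 3.02 in tumor, 2.01 in ADM and 1.84 in embryonic cells. These were 27.3% of the 11 in tumor, 18.2% in ADM and 9.09% in embryonic cells, under the shares of the brighter genes. After housekeeping centring 1 reader was higher in each group, 5 were lower in tumor and 2 in ADM, and the median in tumor over adult cells was -0.87. After quantile normalization or loess 1 reader was higher in each group. Of 10 substrates and cofactors of Hdac6 and Hdac8, 7 rose in tumor, 5 in ADM and 6 in embryonic over adult cells. Their shares were 70% in tumor, 50% in ADM and 60% in embryonic cells, against the shares of all genes given above. Tuba1a rose by 2.90 in tumor, 2.60 in ADM and 2.95 in embryonic cells and cortactin (Cttn) by 2.64 in tumor and 2.58 in ADM. After housekeeping centring 2 of the 10 rose in tumor, 2 in ADM and 3 in embryonic over adult cells. Quantile normalization left 7, 4 and 3 of them higher in that order, and loess 7, 3 and 3.

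Genes of dividing cells were taken as context for Hdac1. All 15 mitosis genes rose in tumor, in ADM and in embryonic over adult cells, and after housekeeping centring 15, 14 and 15 of them did in those groups. Of 16 DNA replication genes 16 rose in tumor, 14 in ADM and 15 in embryonic over adult cells, and after housekeeping centring 13 did in tumor, 8 in ADM and 15 in embryonic cells. The median log2 signal of the 15 mitosis genes per array was 7.30, 8.64 and 9.0 in tumor, 6.74, 6.06 and 6.56 in ADM and 7.23, 7.05 and 7.08 in embryonic cells, against 4.16, 3.96 and 4.23 in adult cells. In tumor over ADM all 15 rose, with a median of 1.79, while Hdac1 differed by -0.17 ± 0.29 there. The part of cell division in the Hdac1 value was not tested.

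**Figure D4:**
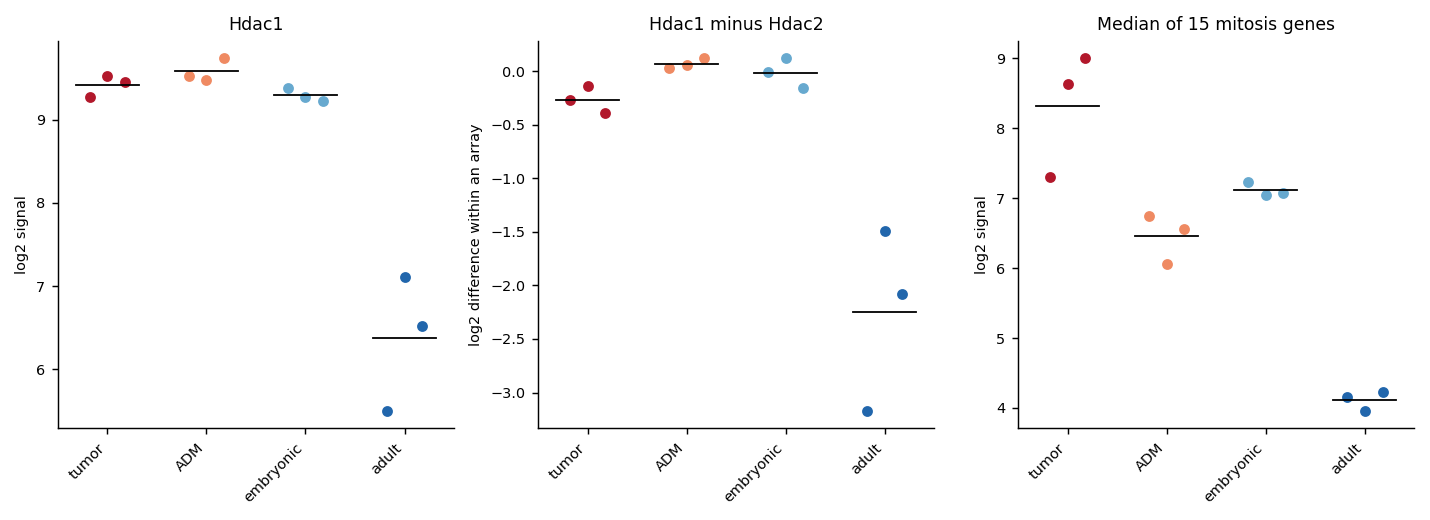
Hdac1 signal (log2), Hdac1 minus Hdac2 within an array (log2) and the median of 15 mitosis genes (log2) on each array of tumor, ADM, embryonic and adult cells; points are arrays and lines are means of 3 arrays, and vertical axes do not start at 0. Adult arrays are lowest in all 3 panels, and tumor arrays exceed ADM arrays in the mitosis panel, at 7.30 to 9.0 against 6.06 to 6.74.

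The cells also differed in what they contained. The summed linear signal of 11 acinar markers was 146 to 180 in tumor, 16807 to 22488 in ADM and 37399.9 to 43013 in embryonic cells, against 51569.9 to 53140.2 in adult cells, with all 11 above background on every embryonic and adult array, and Cpb1 and Amy2b under background on all 3 tumor arrays. Of 10 ductal markers 6 rose and 3 fell in tumor, 8 rose in ADM and 5 in embryonic over adult cells, with sums of 12394 to 12821 in tumor, 15155 to 18218 in ADM and 4561 to 5782 in embryonic cells, against 4962.5 to 5230.5 in adult cells. Of 10 fibroblast and stellate markers 0 rose and 4 fell in tumor, 8 rose in ADM and 10 in embryonic over adult cells, with sums of 142 to 185 in tumor, 2786 to 6718 in ADM and 6599.9 to 10606 in embryonic cells, against 961 to 999.6 in adult cells. Of 8 immune markers 2 rose in ADM and 6 in embryonic over adult cells, with sums of 668 to 1093 in ADM and 1865 to 2788 in embryonic cells, against 339 to 369 in adult cells. In tumor cells 6 of the 10 fibroblast and stellate markers, Dcn and Lum among them, and 4 of the 8 immune markers, with Ptprc, were under background on all 3 arrays, the immune sum was 121 to 134 and 1 immune marker fell. Of the 7 members that passed the F test, Hdac2, Hdac3, Hdac6 and Hdac7 had their highest mean in tumor cells. Hdac1 had it in ADM, and Hdac5 and Hdac10 in adult cells. Of 9 endocrine markers all 9 rose in embryonic over adult cells, with sums of 8436 to 9990 in embryonic cells, against 1767 to 2519 in adult cells, while 6 fell in tumor and 4 in ADM. Of 8 endothelial markers 6 fell in tumor, 1 rose in ADM and all 8 rose in embryonic over adult cells. In embryonic over adult cells 5 of 6 mesothelial, 3 of 5 neural and Schwann and 1 of 2 erythroid markers rose as well. The part of these other cells in the members' values was not tested in any group, adult cells included.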

How the data were processed

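Total RNA of 12 samples had been hybridised to Affymetrix arrays. The deposited table holds 1 log2 signal per probe set and array, with 2 decimals (1.56 to 13.67). The authors' normalization and software are not given in the sources used here, and the base of the logarithm was read from the range of the values.

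Of 41345 probe sets, 23521 had 1 gene symbol in the platform annotation and gave 22180 genes. For 1082 genes with several, the probe set of the highest mean was used. Using limma 3.58.1 in R 4.3.3, all 12 arrays were fitted with 4 group means (lmFit, contrasts.fit, eBayes), with 8 residual and 5.02 prior degrees of freedom. The procedure was tested on simulated data. Tests were two-sided and adjusted by Benjamini-Hochberg over all genes, and a call needed an absolute log2 difference of at least 1 besides an adjusted p under 0.05. Precision is limited by the 3 arrays per group.

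The members, the 14 lists of context genes, the 9 marker lists and the alternatives were chosen with earlier results of these data known. Named were all members, Hdac11 and the sirtuins, up to 4 called genes per context list and comparison, and the 3 genes most like each of the 4 members with the widest range. A context gene named in a group may therefore also be called in another group where it is not named. The marker genes named were chosen after their values were seen. Alternatives were 3 other scalings, the mean of a gene's probe sets, a filter on dim genes, an intensity trend, array weights, 6 arrays at a time, a replicate block and leaving out each array.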

Additional observations from a re-analysis of the deposited data

How the results depend on the processing

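Each of the 60 differences of a member was recomputed under 21 alternatives. Not all of these could move a difference. The mean of probe sets could not, since each member had 1 probe set. Leaving out an array of a group outside the comparison could change only the p-value. The same holds for the filter on dim genes, the intensity trend, the fits of 6 arrays at a time and the replicate block. The calls of Hdac1 in ADM, embryonic and tumor over adult cells and of Hdac5 in tumor over adult cells passed in all 21. The adjusted p went up to 0.000533 for Hdac1 and to 0.0247 for Hdac5. Of the 60 differences, 20 had another call in at least 1 alternative or turned sign as described next. The 6 that turned sign were called on neither scale. Centring on housekeeping genes turned the sign of 6 whose adjusted p was under 0.05 on the deposited scale, after centring or on both: Hdac4 (-0.98), Hdac6 (-0.20), Hdac8 (-0.78) and Hdac9 (-0.80) in tumor over adult cells, and Hdac3 (-0.13) and Hdac10 (-0.66) in tumor over embryonic cells. It subtracts 1 value per array, so these turns follow from the shift of the median of all genes (-1.14 in tumor over adult cells). No size can be read from the values of Hdac8 and Hdac9, since the adult mean of Hdac8 and both means of Hdac9 lay under background.

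The number of members called in tumor over adult cells was 5, and it was 3 under quantile normalization, 3 under cyclic loess and 3 under housekeeping centring, with 4 to 5 when single arrays were left out. The first 2 of these scalings kept Hdac1, Hdac5 and Hdac7. Housekeeping centring kept Hdac1 and Hdac5, lost Hdac7 and newly called Hdac10 lower (-1.67). In embryonic over adult cells the number of members called was 1, and 3 under quantile normalization and under housekeeping centring, Hdac1 higher and Hdac5 and Hdac10 lower. In ADM over adult cells it was 4, with 3 to 4 under the other settings and 2 to 4 with single arrays left out. In tumor over ADM it was 0, and 1 with array weights or without single arrays (0 to 1). In tumor over embryonic cells it was 1, with 0 under quantile normalization and under cyclic loess, 2 under housekeeping centring and with array weights, and 0 to 2 without single arrays. After housekeeping centring the 2 were Hdac5 (-1.73) and Hdac9 (-1.06), both lower, and Hdac7 was not called. The tumor mean of Hdac9 lay under background, so no size can be read from its value. With array weights the 2 were Hdac7, higher, and Hdac5 (-1.42), lower. In ADM over embryonic cells the number of members called was 0 under all 21, at 1 unadjusted limma p under 0.05 in the fit as reported. The F test called 7, with 5 to 7 under other settings and 6 to 8 without single arrays. The shares of all genes called under these settings are not given here, so the counts cannot be read against them.

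With the replicate number as a replicate block, 3 members were called in ADM over adult cells, since Hdac5 (-1.13) had an adjusted p of 0.0659. The block changed no other call. The labels do not say whether same-numbered arrays share anything besides the number. Of 18 same-numbered pairs 1, ADM and embryonic replicate 2, had a correlation of deviations over 0.1, at 0.128. Low correlations cannot exclude a shared origin, since the deviations are from means of only 3 arrays. The causes of these changes were not tested. Depth has no counterpart on arrays, and signal over background limits Hdac8 and Hdac9, whose levels lay near 3.62.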
